A study of Bos taurus with 36 samples.

Results

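The levels of 10 genes of the ureteric bud and of GDNF-RET signalling were followed across the organs of bovine fetuses: GDNF, RET, GFRA1, ETV4, ETV5, GATA3, LHX1, EMX2, PAX8 and CALB1. They are 10 of the 35092 genes in the count table and were found by matching the table's Entrez identifiers to bovine RefSeq symbols, which gave 1 row for each. They were chosen because earlier values from these same libraries showed them high in the gonads, so their levels in gonads against heart and liver are given below as a description, without a test. RNA came from 10 male fetuses taken on Day 42 of gestation, numbered here from fetus 1, the lightest at 1.253 g, to fetus 10, the heaviest at 1.69 g. Fetuses 1 to 5 (ET_D7) came from Day 7 embryos placed in heifers on Day 7 of the oestrous cycle, and fetuses 6 to 10 (ET_D9) from Day 7 embryos placed on Day 9. All 10 were picked for divergent weight, every ET_D7 fetus was lighter than every ET_D9 fetus, and transfer group and weight cannot be told apart. There were 9 heart libraries (fetus 7 was not among them), 9 gonad libraries (without fetus 2, so 4 ET_D7 and 5 ET_D9), 8 liver libraries (without fetuses 6 and 7, so 5 and 3) and 10 libraries of maternal blood. Each organ library came from a different fetus of its group, and no blood library was shared.

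GDNF is a secreted growth factor of the mesenchyme beside the nephric duct. It binds the co-receptor GFRA1, and together they activate the receptor tyrosine kinase RET on duct cells, which sends out the ureteric bud and keeps its tips branching. ETV4 and ETV5 are transcription factors switched on downstream of RET, while GATA3, LHX1, EMX2 and PAX8 are transcription factors that the duct and bud need to form, and CALB1 encodes calbindin, a calcium-binding protein used as a marker of the duct epithelium. The mesonephros, the embryonic kidney drained by this duct, lies against the developing gonad. Several of these genes also act elsewhere, RET and GFRA1 in the nervous system and GATA3 in T cells.

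The total count per library ran from 18231089 to 39649051 over the fetal organs. Levels are given as CPM, which are counts divided by a library size that edgeR's TMM factors correct for composition over the 26 organ libraries, and they are compared between libraries for 1 gene at a time because gene lengths were not corrected for. The share of mitochondrially encoded genes in a library was 17.1% to 57.3% for the heart, 16.3% to 36.8% for the liver and 3.31% to 7.23% for the gonads, so the scale matters between organs. The heart library of fetus 3 stood apart: it held 955 counts of PTH and 218 of PAX1, genes of the parathyroid and of the thymic epithelium, both at 0 in the other 8 hearts, and values that rest on it are given with and without it. PTH and PAX1 were singled out after their values were seen.

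The libraries labelled gonads were checked against marker genes. None of 9 Sertoli cell markers and none of 7 Leydig cell markers was separated upwards in the gonads, with all 9 libraries above the highest of heart and liver. Without the heart library of fetus 3, CLDN11, a tight junction protein of Sertoli cells, was separated, at 7.29 to 13.5 CPM in the gonads against 10.05 CPM in that heart library and at most 1.81 CPM in the other 8 hearts and 1.77 CPM in the liver. The median level in the gonads was 0.0540 CPM for GATA4, 0.836 CPM for NR5A1, 3.01 CPM for SOX9, 1.67 CPM for AMH and 0.102 CPM for DMRT1, all transcription factors or hormones of the developing testis. The summed Sertoli list ran from 39.9 to 63.1 CPM in the gonads, 263 to 472 CPM in the heart and 70.2 to 130 CPM in the liver, and the summed Leydig list from 7.04 to 15.8, 10.1 to 25.0 and 62.5 to 149 CPM in the same order. Of 8 germ cell markers, KIT was the only one separated in this way. In the gonads DDX4 had a median of 0.101 CPM and DAZL a median of 0. The sum of the 8 ran from 28.3 to 46.3 CPM in the gonads and 12.4 to 20.7 CPM in the heart. In the liver this sum was 67.7 CPM in fetus 3, above every gonad library. The other livers, at 8.99 to 12.1 CPM, lay below every gonad library. WT1, a transcription factor of the coelomic epithelium, the gonadal ridge and the nephrogenic mesenchyme, had a median of 127 CPM in the gonads, 6.61 CPM in the heart and 0.887 CPM in the liver. It was the only 1 separated of 4 markers of the coelomic epithelium and mesothelium. The sum of these 4 ran from 96.5 to 170 CPM in the gonads, 24.0 to 44.05 CPM in the heart and 7.45 to 22.6 CPM in the liver. Of 8 markers of the mesonephric glomerulus and tubule, 3 were separated, and NPHS1, a protein of the podocyte slit diaphragm, had medians of 9.96, 0.0558 and 0 CPM in gonads, heart and liver. The sum of that list ran from 70.7 to 167 CPM in the gonads, 233 to 296 CPM in the heart and 97.9 to 158 CPM in the liver. Most of the testis markers thus do not set these libraries apart, the name gonads is kept only as the label, and no other tissue is named from it.

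All 10 genes had counts in each of the 9 gonad libraries. Every gonad library lay above every heart and every liver library for 9 of the 10, the exception being GFRA1, and 1607 of the 25095 genes with a count (6.40%) were separated in this way. The 9 of 10 follows from how the genes were chosen and is given as a description. In bulk tissue, fewer cells of a type and less RNA per cell cannot be told apart.

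**Figure D1:**
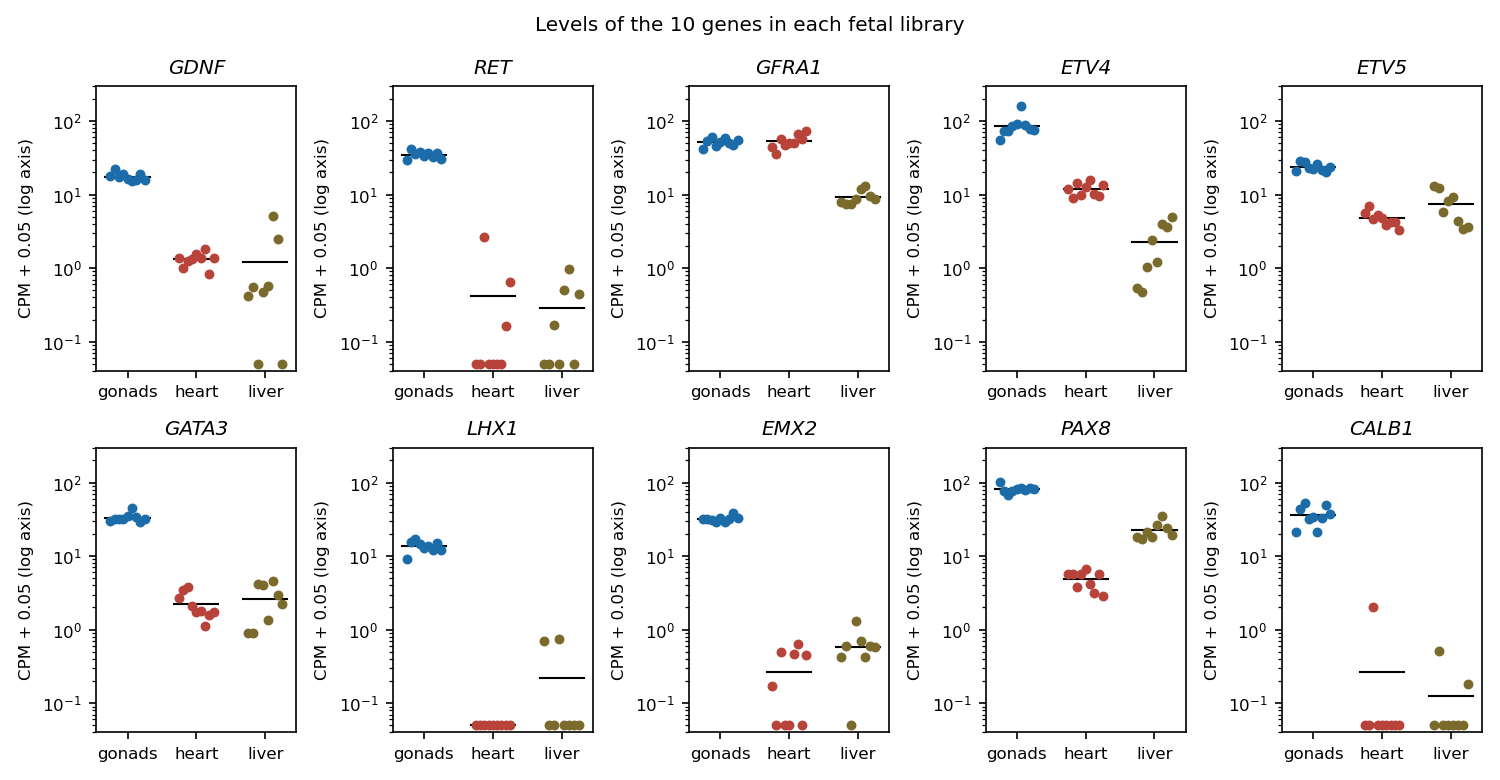
CPM of each of the 10 genes in each fetal library, by organ (log axis, 0.05 added so that 0 can be drawn). Each point is 1 library, ordered within an organ by fetal weight, and each line is the organ's mean. The gonad points lie above all others for 9 genes, GFRA1 overlaps with the heart, and a single heart library, that of fetus 3, carries CALB1.

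The ligand GDNF ranged in the gonads from 15.4 CPM (fetus 7) through a median of 17.4 CPM to 22.0 CPM (fetus 3), with 652 to 1232 counts behind each value. It ranged from 0.785 to 1.74 CPM in the heart (median 1.31) and from 0 to 5.10 CPM in the liver (median 0.468). The gonad mean was 17.6 ± 2.18 CPM (SD, n = 9) against 1.27 ± 0.280 CPM in the heart (n = 9) and 1.17 ± 1.76 CPM in the liver (n = 8), log2 differences of 3.79 (SE 0.578) and 3.89 (SE 0.611). The lowest gonad library was 3.02 times the highest library of the other organs. That highest library was the liver of fetus 8, at 5.10 CPM and 121 counts, while the livers of fetuses 3 and 10 held 0 counts.

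The receptor RET ranged in the gonads from 29.6 CPM (fetus 1) to 41.8 CPM (fetus 3), with a median of 35.4 CPM and at least 1097 counts in each library. In the heart the highest value was 2.62 CPM, the second highest 0.596 CPM and the median 0, and in the liver the range was 0 to 0.928 CPM. RET was thus near the detection limit outside the gonads: 6 of 9 hearts and 4 of 8 livers held no count. The highest heart value was that of fetus 3, with 94 of the 114 counts found in all hearts, and the heart mean was 0.370 ± 0.867 CPM with it and 0.0885 ± 0.209 CPM without it. RET overlaps CSGALNACT2, a gene for a glycosyltransferase, on the reference annotation, and whether strand was used in counting is not stated. The ratio of RET to CSGALNACT2 counts was 1.72 to 18.6 in the gonads and at most 0.318 in the heart and 0.164 in the liver.

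The co-receptor GFRA1 was the only one of the 10 without a gonad excess over the heart. It ranged from 42.1 to 60.3 CPM in the gonads (median 51.4), from 35.6 to 72.8 CPM in the heart (median 50.5) and from 7.36 to 13.2 CPM in the liver (median 8.69). Gonad and heart libraries overlapped over most of their range, and all of them lay above every liver library. The fitted gonad minus heart difference was -0.06 on the log2 scale (SE 0.127), beside a median of 0.06 over genes averaging at least 10 counts, and it stayed between -0.08 and -0.06 with the other size factors, filter and test. On library totals alone, with no composition factor, the means became 83.1 CPM in the gonads and 43.7 CPM in the heart, so the near equality of GFRA1 in these organs depends on the composition correction.

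ETV4 was the more variable of the pair of ETS factors. It ranged from 54.5 CPM in the gonads of fetus 1 to 160 CPM in those of fetus 7 (median 76.9), against 9.01 to 15.9 CPM in the heart and 0.419 to 4.90 CPM in the liver. ETV5 ranged from 20.0 to 28.8 CPM in the gonads (median 23.0), from 3.28 to 7.03 CPM in the heart (median 4.66) and from 3.31 to 13.2 CPM in the liver (median 7.04). The margin was narrowest for ETV5 among the 9 separated genes, the lowest gonad library standing at 1.52 times the highest liver. The log2 difference of gonads from heart and from liver was 2.87 (SE 0.319) and 5.30 (SE 0.383) for ETV4, and 2.32 (SE 0.234) and 1.66 (SE 0.238) for ETV5.

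Among the duct transcription factors, EMX2 and LHX1 were at or near 0 in heart and liver. EMX2, a homeobox factor, ranged from 28.8 to 38.1 CPM in the gonads (median 31.8) and reached at most 0.593 CPM in the heart and 1.27 CPM in the liver, with a log2 difference of 7.03 (SE 0.578) and 5.90 (SE 0.573). LHX1, a LIM homeobox factor, ranged from 9.21 CPM (fetus 1) to 17.3 CPM (fetus 4), with a median of 13.9 CPM and 341 to 956 counts. All 9 hearts held 0 counts of LHX1, and the liver held 22, in fetuses 1 and 4 only. Set against a floor of 3 counts over the whole heart group, the gonad mean of LHX1 was at least 956-fold higher than the heart.

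GATA3, a zinc finger factor, ranged from 28.7 to 45.4 CPM in the gonads (median 31.9), from 1.08 to 3.74 CPM in the heart and from 0.838 to 4.55 CPM in the liver, with log2 differences of 3.94 (SE 0.313) and 3.69 (SE 0.325). PAX8, a paired box factor also used by thyroid cells, was present in all 3 organs. It ranged from 67.3 to 103 CPM in the gonads (median 81.6), from 17.0 to 35.2 CPM in the liver (median 20.4) and from 2.82 to 6.65 CPM in the heart (median 5.57). Gonads, liver and heart did not overlap for PAX8, and the lowest gonad library was 1.91 times the highest liver. PAX8 and GATA3 each overlap a long non-coding RNA on the reference annotation. The one beside GATA3 had 0 counts in all 36 libraries, and the one beside PAX8 was not analysed here.

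CALB1, the duct epithelium marker, had the widest contrast with the liver. It ranged from 20.9 CPM (fetus 1) to 53.5 CPM (fetus 4) in the gonads, with a median of 34.1 CPM and 774 to 2964 counts. The liver held 12 counts in all, 10 of them in fetus 2, and the log2 difference of gonads from liver was 8.84 (SE 1.08). In the heart all 70 counts fell in fetus 3, at 1.95 CPM, and the other 8 hearts held 0.

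Beyond RET and CALB1, no gene of this set stood clearly apart in CPM in the heart library of fetus 3. Its GATA3 count was 134 against 27 to 57 in the other hearts, although its level of 3.74 CPM was close to the next highest heart at 3.42 CPM. LHX1 was at 0 there, and EMX2, PAX8, GDNF, ETV4, ETV5 and GFRA1 lay within the range of the other hearts in CPM. The part of the PTH- and PAX1-containing material in the RET and CALB1 counts of this library was not tested.

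Maternal blood was prepared with another kit, so its levels are given by themselves. GATA3, which T cells use, ranged from 38.6 to 62.1 CPM over 10 libraries (median 52.6). RET ranged from 2.87 to 21.1 CPM (median 7.23), while its overlapping neighbour CSGALNACT2 held 1980 to 4369 counts and the ratio of their counts was 0.0329 to 0.222, so the RET counts of blood are uncertain. Means of the others in blood were 4.48 CPM for PAX8, 3.01 CPM for ETV5, 0.735 CPM for ETV4, 0.523 CPM for GFRA1 and 0.219 CPM for GDNF. EMX2 held 16 counts over all blood libraries, and LHX1 and CALB1 held 2 counts each. The highest RET level in blood was that of the dam of fetus 5. Her library held a sum of 1108 CPM over 4 heart muscle markers, and that of the dam of fetus 2 held 3358 CPM. The remaining blood libraries held 0.0981 to 17.35 CPM. The part of this material in the blood levels was not tested.

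Heart and liver were compared with edgeR's quasi-likelihood test, a contrast that did not choose the genes. Of the set, 5 of 10 passed a Benjamini-Hochberg adjusted p of 0.05, beside 14694 of 25095 genes tested (58.6%), a share near that of the set. GFRA1 was higher in the heart, by 2.52 on the log2 scale (SE 0.142, adjusted p = 5.38e-15), and so was ETV4, by 2.44 (SE 0.344, adjusted p = 6.16e-07). PAX8 was higher in the liver, with a heart minus liver difference of -2.24 (SE 0.163, adjusted p = 1.43e-12), and ETV5 likewise, at -0.66 (SE 0.232, adjusted p = 0.0163). ETV4 and ETV5, both targets of RET, were thus called in opposite directions between these organs. The ETV5 difference lay in the ET_D7 fetuses, each of which held more ETV5 in the liver than in the heart. In fetuses 8, 9 and 10, of ET_D9, ETV5 stood at 4.259, 3.305 and 3.596 CPM in the liver. In the hearts of the same fetuses ETV5 stood at 4.151, 4.204 and 3.278 CPM. LHX1 was called higher in the liver (adjusted p = 0.00310), which rests on 22 counts in 2 of 8 livers against 0 in the heart, at least 11.8-fold by the floor of 3 counts over the heart group.

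The other 5 genes did not pass the test between heart and liver. The differences were 0.10 for GDNF (SE 0.554), -0.25 for GATA3 (SE 0.297) and -1.13 for EMX2 (SE 0.546, adjusted p = 0.0766). Those of RET, 0.72 (SE 0.885), and CALB1, 1.75 (SE 1.10), turned on the heart library of fetus 3. Without that library RET stood at -1.30 (adjusted p = 0.188). CALB1 and EMX2 then passed as higher in the liver (adjusted p = 0.0141 and 0.0461), CALB1 on the 12 liver counts alone, which made 7 calls. Over all genes, the fits that left out this library or a fetus called 13560 to 14690, so a call between these organs was common in each. CALB1 was instead called higher in the heart without fetus 2 (adjusted p = 0.0212), EMX2 higher in the liver without fetus 8 (0.0362), and ETV5 was lost without fetus 1 (0.0609).

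**Figure D2:**
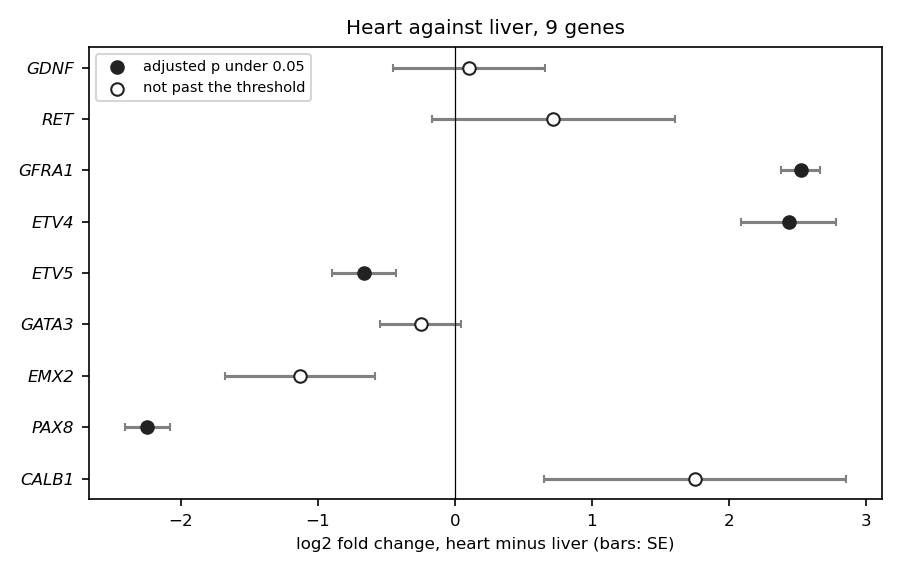
Log2 fold change of heart minus liver for 9 of the genes from edgeR (points) with its SE (bars), filled where the adjusted p was under 0.05. GFRA1 and ETV4 lie to the right at 2.52 and 2.44, PAX8 and ETV5 to the left at -2.24 and -0.66, and LHX1, at 0 counts in every heart, is left out.

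Variation between fetuses was small for most of the set in the gonads. The SD of log2(CPM + 1) over the 9 gonad libraries had a median of 0.173 over the 10 genes, beside 0.238 over the 14513 genes with a mean of at least 1 CPM there. Of the 10, 3 lay above that median. The 2 sets were not matched for level, as the gonad means of the 10 ran from 13.6 to 87.0 CPM. The part of level in the difference between the medians was not tested. CALB1 had the largest SD of the set, 0.465, and spanned 2.56-fold from fetus 1 to fetus 4. ETV4 had an SD of 0.414 and spanned 2.94-fold from fetus 1 to fetus 7, and LHX1 an SD of 0.245. EMX2 was the steadiest, with an SD of 0.116 and a 1.32-fold span.

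Fetus 1, the lightest, held the lowest gonad level of 5 of the 10 genes, namely RET, GFRA1, ETV4, LHX1 and CALB1, and the highest of PAX8. Fetus 7 held the highest ETV4 and GATA3 and the lowest GDNF and EMX2, and its CALB1, at 21.3 CPM, was close to the lowest. Fetus 3 held the highest GDNF, RET and ETV5. The library of fetus 7 also moved the spread of all genes, whose median SD was 0.199 without it. Marker sums of the mesonephric list in the gonads were lowest in fetus 1 and highest in fetus 9, and those of neural crest derivatives from 15.9 to 29.6 CPM with fetus 1 highest (1.15 to 7.23 CPM in the heart, 12.1 to 37.3 CPM in the liver). Their part in these levels was not tested.

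**Figure D3:**
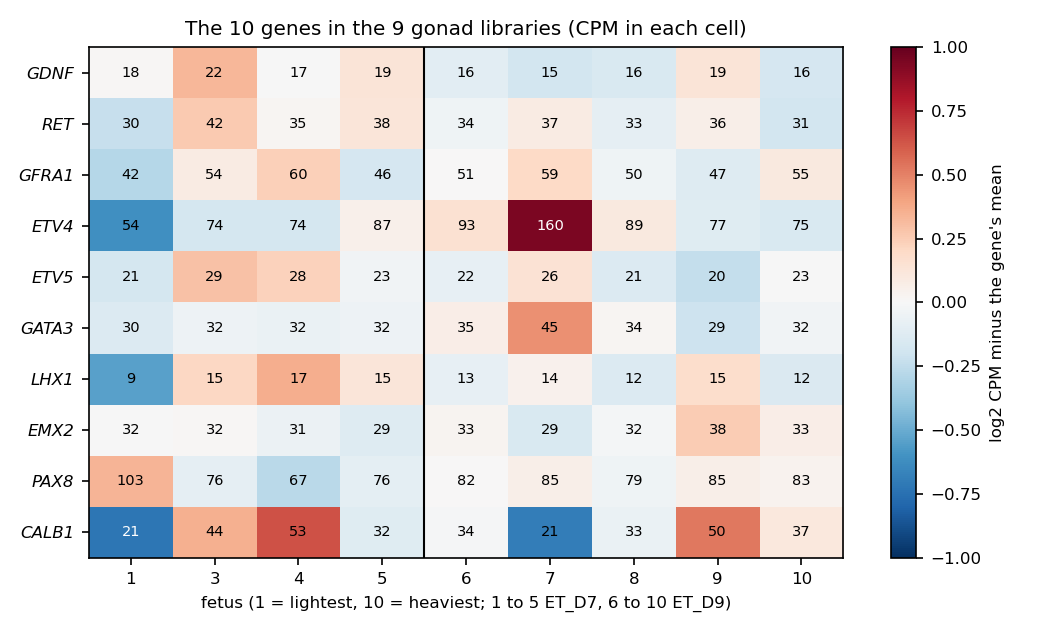
CPM of the 10 genes in the gonads of each fetus (numbers), coloured by log2 CPM minus the gene's mean over the 9 libraries. Fetuses run from lightest to heaviest and the line parts ET_D7 from ET_D9. Fetus 1 is low for RET, GFRA1, ETV4, LHX1 and CALB1 and high for PAX8, and fetus 7 is high for ETV4 and GATA3.

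Pairs of the genes followed each other unevenly across the 9 gonad libraries, where all points share a scaling and no p is given. Of 45 pairs, 26 had a Pearson r above 0, with a median of 0.222, and 24 without fetus 1, with a median of 0.0503. Ligand and receptor, GDNF and RET, had an r of 0.662 (Spearman's rho 0.483), and RET and LHX1 an r of 0.791 (rho 0.783). GFRA1 and ETV5 had an r of 0.775 (rho 0.767). ETV4 and ETV5 had an r of only 0.243 (rho -0.0833). ETV4 went with GATA3, with an r of 0.911 (rho 0.800), which was 0.645 without fetus 7. LHX1 and PAX8 ran in opposite directions, with an r of -0.858 (rho -0.633) and -0.651 without fetus 1.

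Genes with the most similar profiles over the 9 gonad libraries were sought among 14513. For RET they were TSGA10 (r = 0.983), SALL1 (0.983), MMP2 (0.973), TTC38 (0.972) and TM2D2 (0.965). For GDNF they were COL4A1, a basement membrane collagen (0.981), the unnamed locus LOC104968627 (0.980), MEGF6 (0.972), EGFLAM (0.970) and PARM1 (0.970). For GATA3 they were CDC20, a mitotic regulator (0.999), ZNF771 (0.997), POLA2, a subunit of DNA polymerase alpha (0.996), ST3GAL1 (0.991) and N4BP3 (0.990). Without the 2 libraries farthest from the median of GATA3 the last 5 stood between 0.901 and 0.991. With 14513 candidates and 9 libraries, high r values are found for any gene.

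Fetal weight was tested in the gonads with a spline of 3 degrees of freedom in edgeR, and none of the 10 genes passed. This was 0 of 10 beside 0 of 17809 genes tested (0%), and at an unadjusted p under 0.05 it was 1 of 10 beside 2241 genes (12.6%). That gene was ETV4 (adjusted p = 0.223), lowest in fetus 1, highest in fetus 7 of intermediate weight and at 74.97 CPM in the heaviest. The call depended on the model: DESeq2 called ETV4 (adjusted p = 0.00197, with 1358 genes in all, 7.63%), and so did an additive model (0.00290, with 2508 genes, 14.1%), and edgeR did so without fetus 8 (0.00154). The linear slopes of the 10 genes in the gonads lay between -0.04 and 0.10 on the log2 scale per 0.1 g, none past the threshold, as was the case for all genes (0%).

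Transfer group was compared in the gonads with the same tool. None of the 10 genes differed between ET_D9 and ET_D7, with 0 of 10 also at an unadjusted p under 0.05 and by DESeq2, beside 63 of 17809 genes (0.354%), 3290 unadjusted and 940 by DESeq2 (5.28%). The largest difference of the set was that of ETV4, 0.47 higher in ET_D9 on the log2 scale (SE 0.250, adjusted p = 0.337). The next were GDNF, -0.20 (SE 0.118), and GATA3, 0.18 (SE 0.144).

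In the heart, 7 of the 10 genes had enough counts for a fit on weight. None passed with the spline in edgeR, beside 0 of 16250 genes (0%). At an unadjusted p under 0.05 it was none of the 7, beside 1298 genes (7.99%). DESeq2 called none of the 7, beside 535 genes (3.29%). With a linear term 0 of the 7 passed, beside 1100 genes (6.77%). At an unadjusted p under 0.05 it was 3 of the 7, beside 4734 genes (29.1%), and only these 3 are given here. GFRA1 had a slope of 0.15 per 0.1 g (SE 0.0415, adjusted p = 0.0525), ETV5 of -0.16 (SE 0.0595, adjusted p = 0.112) and GATA3 of -0.25 (SE 0.102, adjusted p = 0.132). GFRA1 passed in edgeR without fetus 3 (adjusted p = 0.0136), without fetus 9 (0.0380) and with RLE size factors (0.0393), and with the transfer group as covariate its slope was 0.16 (SE 0.0810, adjusted p = 0.699), in a fit that called 0 of 16250 genes (0%). The mitochondrial share of the heart libraries was 23.5% to 57.3% in ET_D7 and 17.1% to 39.0% in ET_D9, and with mitochondrial genes left out the slope of GFRA1 was 0.15 (adjusted p = 0.0540). The part of that share in the slopes was not tested.

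In the liver, ETV4 and ETV5 ran in opposite directions along weight, ETV4 higher and ETV5 lower in the heavier fetuses. ETV4 stood at 0.480, 0.419, 1.001, 2.33 and 1.17 CPM in the ET_D7 livers of fetuses 1 to 5, and at 3.88, 3.61 and 4.90 CPM in the ET_D9 livers of fetuses 8, 9 and 10. ETV5 stood at 13.2, 12.3, 5.83, 8.25 and 9.22 CPM in the former and at 4.26, 3.31 and 3.60 CPM in the latter. The transfer groups did not overlap for either gene, with 9 to 92 counts of ETV4 and 55 to 283 of ETV5 behind each value. The count ratio of ETV4 to ETV5, which needs no scaling, ran from 0.0340 to 0.282 in ET_D7 livers and from 0.911 to 1.36 in ET_D9 livers. In the gonads it ran from 2.57 to 6.18 and in the heart from 1.28 to 4.16. These ratios are not corrected for gene length, so only their differences between libraries are meant.

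The liver slope of ETV5 was -0.46 on the log2 scale per 0.1 g (SE 0.0815) and passed in edgeR (adjusted p = 0.0282), and that of ETV4 was 0.64 (SE 0.164, adjusted p = 0.0778). This was 1 of 7 genes tested, beside 371 of 16605 (2.23%). With the spline, 0 of 7 genes tested passed beside 301 of 16605 (1.81%). At an unadjusted p under 0.05 it was 2 of the 7, beside 2977 genes (17.9%). DESeq2 called both ETV4 and ETV5, beside 1771 genes (10.7%). The linear call of ETV5 was lost without any 1 of fetuses 1, 2, 8, 9 and 10, its adjusted p reaching 0.192, while the slope ran from -0.50 to -0.44 leaving out each fetus. With the transfer group as covariate the slopes were -0.37 for ETV5 (SE 0.268, adjusted p = 0.730) and 1.05 for ETV4 (SE 0.564), in a fit that called 0 of 16605 genes (0%). ETV4 was called without fetus 4 (adjusted p = 0.0159). Across the livers, 333 genes jumped between libraries, with counts of 300 or more in part of them and of 2 or fewer in the rest. None of the 10 was among them, and the methods do not say whether liver counts were altered before deposit. The summed T cell markers were 17.6 to 39.6 CPM in the ET_D7 livers and 0.675 to 2.003 CPM in the ET_D9 livers, whereas hepatocyte markers (9508 to 16460 against 11320 to 19930 CPM) and red cell markers (1918 to 2534 against 1920 to 3209 CPM) overlapped. The part of these in the ETV4 and ETV5 values was not tested.

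**Figure D4:**
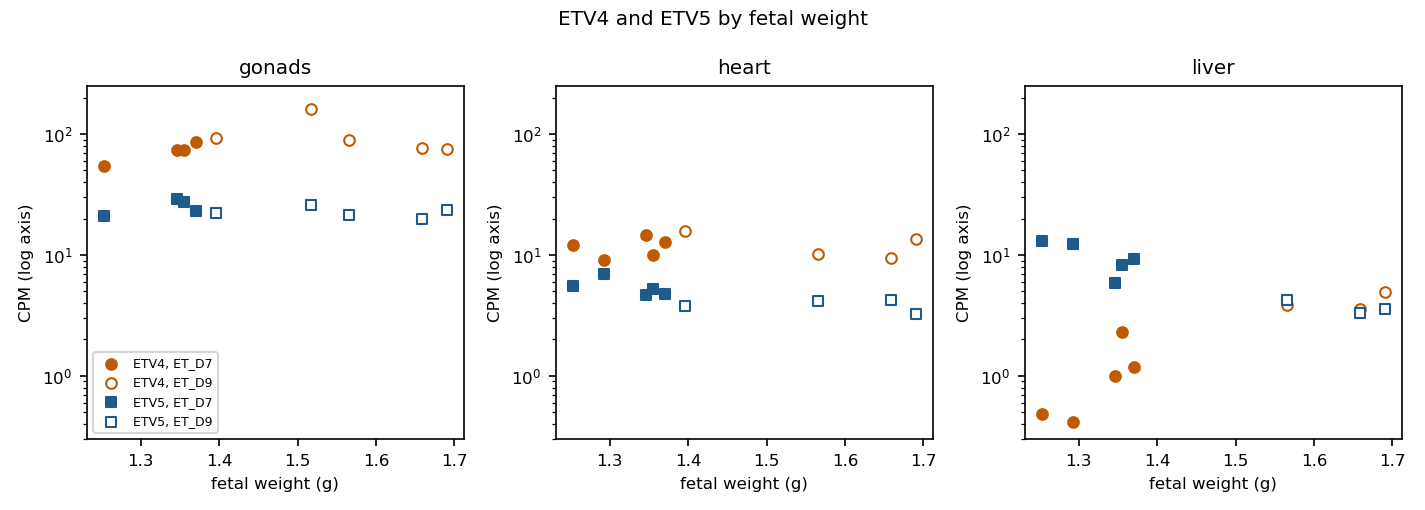
CPM of ETV4 (circles) and ETV5 (squares) against fetal weight in grams in gonads, heart and liver (log axis), filled for ET_D7 and open for ET_D9. In the liver ETV4 lies below ETV5 in all 5 ET_D7 fetuses and meets it in the 3 ET_D9 fetuses, while in gonads and heart ETV4 stays above ETV5.

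Whether slopes along weight differed between organs was tested in the fit of all 26 organ libraries. Between gonads and liver, 2 of 10 genes differed, beside 910 of 25095 (3.63%). The slope of ETV4 was lower in the gonads by a difference of -0.57 per 0.1 g (SE 0.150, adjusted p = 0.0329), and that of ETV5 higher by 0.40 (SE 0.0889, adjusted p = 0.00932). With the fetus as a block the ETV4 difference kept its call (adjusted p = 0.0149), the ETV5 difference lost it (0.0800), with the difference at 0.36, and 372 genes were called in all (1.48%). Leaving out fetuses 1, 9 or 10 ended the call of each gene, and leaving out fetuses 2, 3, 5 or 8 ended that of ETV4, with adjusted p up to 0.213 for ETV4 and 0.0835 for ETV5. The differences themselves ran from -0.67 to -0.50 for ETV4 and from 0.34 to 0.45 for ETV5 leaving out each fetus. Between gonads and heart 0 of the 9 genes that could be fitted differed (LHX1 had no heart count), also with the block, beside 6 of 25095 genes (0.0239%), and none of the 9 had an unadjusted p under 0.05.

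Other genes of the pathway were taken from 5 lists of 63 genes, of which 60 had a count, and called higher or lower in the gonads when they passed against both heart and liver. Of the 63, 24 were higher and 3 lower, beside 3741 of 25095 genes higher (14.9%) and 3421 lower (13.6%). The lists were drawn up with earlier results of these data known. The contrast of gonads with heart and liver is also the one that chose the genes followed above. The counts over the lists are therefore given as a description and not as an independent test of the pathway. With an absolute log2 difference above 1 also asked for, 22 were higher, beside 2073 genes (8.26%). The median of the smaller of a gene's log2 differences was 0.41 over the lists and -0.66 over all genes. The calls lay mostly in the lists of duct genes and of regulators of GDNF.

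Of 8 other ligands and co-receptors of the family, 1 was higher than both organs and none lower than both, with a median smaller difference of -0.01. GFRA2, the co-receptor for neurturin, stood at 16.9 ± 3.03 CPM in the gonads, 7.52 ± 0.730 CPM in the heart and 11.6 ± 4.44 CPM in the liver, and passed by 0.54 over the liver (SE 0.171, adjusted p = 0.00735), a call lost with DESeq2 (adjusted p = 0.0583) and with its size factors in edgeR (0.0845). NCAM1, a cell adhesion molecule that can act as a GDNF receptor, was above the liver by 4.19 (adjusted p = 9.59e-14), with a difference of 0.33 from the heart. GFRA3, the co-receptor for artemin, was above the heart by 0.92 (adjusted p = 0.000576), and its level in the liver was higher than in the heart, with a heart minus liver difference of -1.14 (adjusted p = 4.70e-05). NCAM1 and GFRA3 were singled out after their values were seen. ARTN, another ligand, had 0 counts in all organs.

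Of 16 adaptors and feedback inhibitors of RET, 4 were higher, 1 was lower and the median smaller difference was -0.20. PLCG1, a phospholipase recruited by RET, stood at 108 ± 13.9 CPM in the gonads against 44.4 ± 17.7 CPM in the heart and 22.2 ± 6.70 CPM in the liver. SPRY2, an inhibitor of receptor tyrosine kinase signalling, stood at 44.4 ± 5.34, 19.6 ± 6.66 and 2.999 ± 1.23 CPM in the same order. SPRED2, another inhibitor of this kind, stood at 63.1 ± 9.71, 29.3 ± 1.73 and 14.1 ± 2.23 CPM. GRB2, a general adaptor, was lower in the gonads, by -0.34 against the heart (SE 0.0849) and -0.54 against the liver (SE 0.0874).

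Of 7 genes listed as responding to RET in the bud tip, 1 was higher than both organs and none lower than both, with a median of 0.45. KIF26B, a kinesin family protein, stood at 213 ± 22.8 CPM in the gonads, 76.0 ± 10.5 CPM in the heart and 18.7 ± 10.3 CPM in the liver. WNT11, the ligand classically induced by RET at the tip, was below the heart by -0.92 (SE 0.195, adjusted p = 0.000263) and above the liver by 2.66 (SE 0.219). MYB was below the liver by -1.27 (SE 0.189, adjusted p = 1.18e-06) and above the heart by 2.19. MET was below the liver by -1.77 (SE 0.201, adjusted p = 1.14e-08) and above the heart by 1.44. WNT11, MYB and MET were singled out after their values were seen.

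Of 18 other genes of the nephric duct and ureteric bud, 9 were higher and 2 lower, with a median of 1.26. PAX2, a paired box factor of the duct and nephrogenic mesenchyme, stood at 114 ± 11.7 CPM in the gonads, with 3 counts in all hearts together and 0.263 ± 0.364 CPM in the liver. HOXB7 stood at 13.8 ± 1.72 CPM against 0.112 ± 0.295 CPM in the heart (0.0148 ± 0.0420 CPM without fetus 3) and 0.0516 ± 0.104 CPM in the liver, and TFAP2A at 23.5 ± 3.06 CPM against 0.604 ± 1.25 and 0.329 ± 0.299 CPM. Most of the heart's TFAP2A, 140 of 172 counts, came from fetus 3, without which the heart mean was 0.191 ± 0.206 CPM. The lower genes were the epithelial keratins KRT8 and KRT18. KRT8 stood at 17.7 ± 2.83 CPM in the gonads, 132 ± 35.3 CPM in the heart and 59.3 ± 11.4 CPM in the liver, and KRT18 at 30.7 ± 7.57, 109 ± 16.5 and 177 ± 23.2 CPM.

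Of 14 regulators of GDNF expression and of where it acts, 9 were higher and none lower, with a median of 1.76. The homeobox genes HOXA11 and HOXD11 and the transcriptional co-activator EYA1 are needed for GDNF to be made in the metanephric mesenchyme. HOXA11 stood at 35.7 ± 7.36 CPM in the gonads, with 4 counts in the heart, all in fetus 3, and 0 in all livers. HOXD11 stood at 17.9 ± 3.70 CPM, with 0 counts in all hearts and 4 in the livers. EYA1 stood at 123 ± 27.0 CPM in the gonads, 5.29 ± 1.80 CPM in the heart and 1.02 ± 1.15 CPM in the liver.

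**Figure D5:**
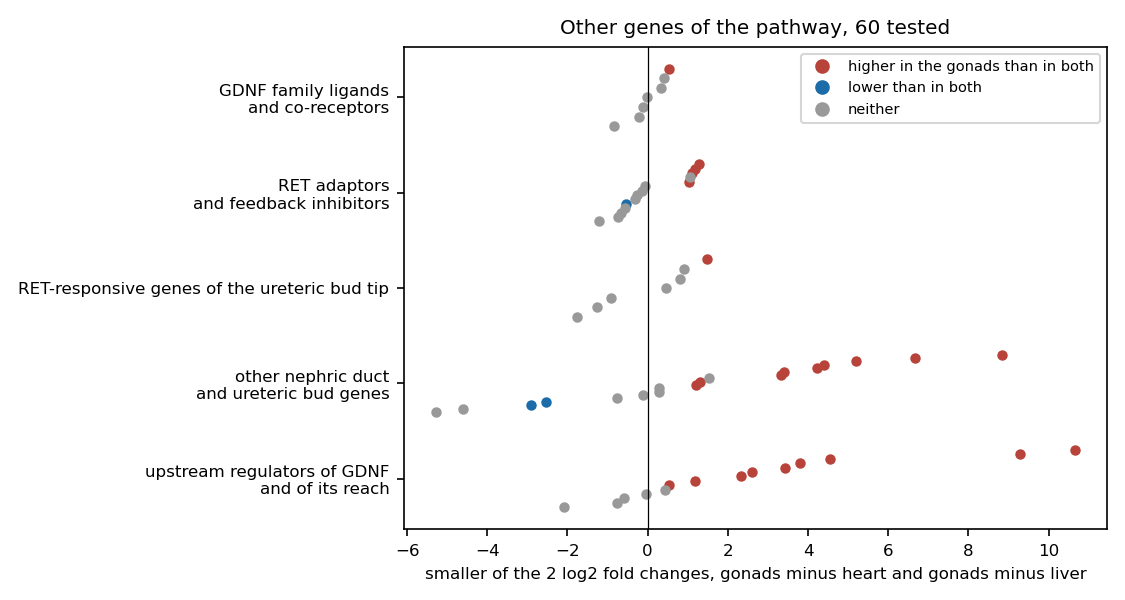
The smaller of the log2 differences of gonads minus heart and gonads minus liver for the 60 listed genes with a count, by list. Each point is 1 gene, red where it was higher in the gonads than in both organs, blue where it was lower than in both and grey otherwise. The red points gather in the lists of other duct genes (9 of 18) and of upstream regulators (9 of 14).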

How the data were processed

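After trimming with Trimmomatic, the authors aligned reads to ARS-UCD1.3 using STAR 2.7.0b and deposited whole-number gene counts from featureCounts (Subread 2.0.3). Options for strand, multi-mapping reads and pairs are not given in the sources used here, so overlapping genes are uncertain. Gene names came from a RefSeq table of a later assembly, which matched 31630 of 35092 identifiers, and no coordinates were taken from it.

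The 26 organ libraries were fitted together in R 4.3.3 with edgeR 4.0.16 (TMM, glmQLFit, glmQLFTest), over genes with at least 1 count, and single organs over genes reaching 10 counts in 4 or more of their libraries. Adjusted p-values are Benjamini-Hochberg over all genes tested, with a threshold of 0.05. SEs are the log2 difference over the root of F. DESeq2 1.42.0, mgcv 1.9.3, other size factors, filters and left-out fetuses were alternatives. The fits were tested on simulated data. Blood was scaled by itself.

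Organs with the same number came from the same fetus. Deviations from the group mean had a median correlation of 0.126 (heart and gonads, -0.296 to 0.383), 0.0281 (gonads and liver) and 0.00989 (heart and liver) within a fetus.

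The genes, the pathway and marker lists and the tests were chosen with earlier results of these data known. Named were all 10 genes, up to 3 genes called higher per list with the largest smaller difference, every listed gene called lower, and the 5 genes most like RET, GATA3 and GDNF. The fits on weight in heart and liver and those without the heart library of fetus 3 were added after seeing the data.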

Additional observations from a re-analysis of the deposited data

Results flagged for a closer look

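A library was marked when its gap to the nearest other library, as a share of the range of its group, passed Dixon's 95% value. This marked 11 of 39 groups of the 10 genes, and no cause was tested. The rate of about 1 in 20 belongs to normally spread values and does not hold for groups near 0 counts. CALB1 in the heart and LHX1 and CALB1 in blood had counts in 1 library only, which marks that library by construction. The 11 are therefore not read as an excess. In the gonads these were ETV4 at 160.4 CPM and GATA3 at 45.42 CPM in fetus 7, EMX2 at 38.08 CPM in fetus 9 and PAX8 at 102.6 CPM in fetus 1. In the heart they were RET at 2.623 CPM and CALB1 at 1.953 CPM, both in fetus 3. In the liver they were GDNF at 5.102 CPM in fetus 8 and CALB1 at 0.4653 CPM in fetus 2. In maternal blood they were RET at 21.13 CPM in the dam of fetus 5, LHX1 at 0.04868 CPM in that of fetus 3 and CALB1 at 0.07527 CPM in that of fetus 7, each of the last 2 resting on 2 counts.

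The slope along fetal weight differed between gonads and liver by a test of the difference for ETV4, by -0.5696 on the log2 scale per 0.1 g, and for ETV5, by 0.4002, both from edgeR's fit of all organ libraries.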

How the results depend on the processing

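Counts of 5 genes called between heart and liver and of 24 listed genes higher in the gonads stayed within 1.5 times under every alternative run (4 to 7 and 22 to 25), as did the count of 9 separated genes and the median SD in the gonads (0.167 to 0.184 leaving out each fetus). The replicate block, the fetus, gave 5 and 24 and ended only the ETV5 slope difference between gonads and liver, leaving 1 call of 2. That count ran from 0 to 3 leaving out each fetus. No paired analysis was possible because no fetus is in both transfer groups or has more than 1 weight, for the comparisons within an organ.

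Along weight, 0 calls in the gonads became 1 with DESeq2 and 1 with the additive model, and 0 to 1 leaving out each fetus. In the liver 0 became 2 with DESeq2, 1 with the linear term and 0 to 1 leaving out each fetus. All genes called along weight in the gonads were 0 with edgeR, 1358 with DESeq2 and 2508 with the additive model, up to 1501 leaving out a fetus, in the heart 535 with DESeq2 and 1100 with the linear term, and in the liver 1771 with DESeq2. Genes called between transfer groups in the gonads were 940 with DESeq2, 6 with the other size factors and 0 to 386 leaving out each fetus, beside 63. Those whose slope differed between gonads and liver were 391 to 930. The cause of these changes was not tested.

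RLE size factors moved the median of all genes between heart and liver from 0.00844 to -0.15 on the log2 scale, and that of gonads minus liver from 0.0134 to -0.15; relative to this shift no called gene of the 10 changed side. Signs turned only where no call stood in the main value. Between heart and liver, GDNF turned with RLE size factors (-0.0307) and DESeq2 (-0.0245) and ran from -0.14 to 0.97 leaving out each fetus, RET turned with the replicate block (-0.17) and without the heart of fetus 3 (-1.30; -1.39 to 1.64 leaving out each fetus), GATA3 ran from -0.49 to 0.0116, and CALB1 turned without the heart of fetus 3 (-4.38; -4.54 to 4.004). EMX2 was called with RLE size factors and DESeq2 (adjusted p = 0.0429 and 0.00804). Between transfer groups the ranges leaving out each fetus were -0.17 to 0.0109 for RET, -0.0230 to 0.16 for GFRA1, -0.25 to 0.0237 for LHX1, -0.0169 to 0.17 for PAX8 and -0.30 to 0.13 for CALB1. The slope difference of gonads from heart ran from -0.17 to 0.00980 for GDNF and from -3.03 to 0.86 for RET, which was -0.19 with the replicate block, and that of gonads from liver from -0.0430 to 0.14 for EMX2 and from -1.50 to 2.43 for CALB1. The LHX1 slope of gonads from heart could not be fitted, with no heart count. Depth limits RET, LHX1, EMX2 and CALB1 outside the gonads, where most libraries hold under 20 counts.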
